A study of Rattus norvegicus with 12 samples.

Results

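The genes described here are the core parts of the circadian clock other than the Period genes, in hypothalamic tissue that contained the paraventricular nucleus (PVH). They were chosen by name: the activators Arntl, Clock and Npas2, the cryptochromes Cry1 and Cry2, the Rev-erb receptors Nr1d1 and Nr1d2, and the PAR bZIP genes Dbp, Tef and Hlf. Of these 10 names, 9 were found among the 17310 genes of the files, and all 9 passed the filter on low counts that left 12856 genes. Hlf was not analysed here.

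The clock is a feedback loop of transcription. ARNTL (also called BMAL1) pairs with CLOCK, or with its relative NPAS2 in the forebrain, and the pair switches on the Period, cryptochrome, Rev-erb and PAR bZIP genes through DNA elements called E-boxes. Period and cryptochrome proteins then repress the activators, and the Rev-erb proteins repress Arntl through ROR elements. The suprachiasmatic nucleus of the hypothalamus is the master clock, other brain regions carry clocks of their own, and corticosterone, the main glucocorticoid of the rat, is one of the signals that set them.

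RNA came from male wild type Wistar rats aged 12 weeks, in 12 libraries that formed 6 groups of 2. The groups were sham-operated rats (sham), rats under high corticosterone for 12 days (high Cort), rats 7 days after adrenalectomy (ADX), rats with both adrenalectomy and corticosterone replacement (supplemented ADX), and 2 groups that received corticosterone acutely and were taken at 1 h (1 h acute) or at 3 h (3 h acute). Adrenalectomy removes the source of corticosterone, and of aldosterone and adrenaline as well. The labels did not give the clock time of sampling, the corticosterone dose, the length of supplementation, whether the acutely treated rats had their adrenal glands, or whether a library was 1 rat or a pool. The spread behind each p value is therefore that of these libraries and may be technical.

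The total per library lay between 17674159 and 36249006 fragments, and the 9 clock genes had between 470 and 11469 fragments in a library, and replicates differed by more than counting error (chi-square per degree of freedom 2.98 to 7.84). All 6 markers of the paraventricular nucleus were measured, among them Sim1 at 36.5 to 54.0 CPM (fragment counts scaled by library size). Of 10 markers of the suprachiasmatic nucleus 8 were tested. The neuropeptide gene Vip lay between 0.277 and 6.44 CPM, and Prok2 at no more than 0.0939 CPM. Others of that list were higher, such as Gpr176 at 27.1 to 34.2 CPM, Rgs16 at 10.1 to 37.8 CPM and Syt10 at 14.8 to 21.5 CPM. All 14 markers of the thalamus, which lies beside the dissected block, were tested and none was at 0. The mean log2 CPM of these markers, called the thalamus score, stood at 6.71 and 7.23 for sham, and high Cort had 7.10 and 7.07. ADX had 6.52 and 6.64, supplemented ADX 6.60 and 6.57, 1 h acute 6.33 and 5.68, and 3 h acute 6.14 and 6.26. Their summed level ran from 3550 to 4468 CPM in sham and 4249 to 4377 CPM in high Cort. It was 2850 to 3152 CPM with ADX, 2999 to 3100 CPM with supplementation, 1825 to 2641 CPM at 1 h and 2500 to 2614 CPM at 3 h. The libraries thus differed in thalamus marker level, with sham replicate 2 the highest and 1 h acute replicate 2 the lowest.

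Start regions of 2 of the genes that were lower than sham in the acute groups are shown because they carry elements through which the clock loop is known to close. They come from RefSeq (build GRCr8), span 250 bases before to 50 after the annotated start, and are written 5′ to 3′ along the gene with matches in capitals. Arntl is annotated there as Bmal1 (chr1:176766078-176766377, plus strand), and its match is a ROR element core, TAGGTCA. Nr1d1 has 2 annotated starts on the minus strand of chromosome 10. The window at chr10:84229405-84229704 holds an E-box, CACGTG, and that at chr10:84231763-84232062 an E-box variant on the opposite strand.
Arntl: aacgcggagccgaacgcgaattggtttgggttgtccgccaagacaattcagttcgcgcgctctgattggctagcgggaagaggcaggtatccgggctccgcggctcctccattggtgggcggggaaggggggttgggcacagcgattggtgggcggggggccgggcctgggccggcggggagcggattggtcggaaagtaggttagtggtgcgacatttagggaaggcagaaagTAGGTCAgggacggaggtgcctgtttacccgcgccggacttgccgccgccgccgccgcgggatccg
Nr1d1, first window: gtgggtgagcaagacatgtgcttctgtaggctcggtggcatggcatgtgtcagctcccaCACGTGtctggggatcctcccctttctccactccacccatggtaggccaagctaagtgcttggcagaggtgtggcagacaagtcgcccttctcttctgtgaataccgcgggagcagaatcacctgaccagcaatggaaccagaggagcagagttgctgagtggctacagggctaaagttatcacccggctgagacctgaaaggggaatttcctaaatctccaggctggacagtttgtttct
Nr1d1, other window: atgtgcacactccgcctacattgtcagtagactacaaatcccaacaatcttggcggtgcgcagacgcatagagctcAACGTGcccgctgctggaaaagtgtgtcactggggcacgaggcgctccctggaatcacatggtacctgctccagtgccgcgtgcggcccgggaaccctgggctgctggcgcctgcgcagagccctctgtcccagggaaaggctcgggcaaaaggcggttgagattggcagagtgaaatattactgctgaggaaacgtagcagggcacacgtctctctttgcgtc

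Windows were available for 8 of the 9 genes, 10 windows in all, and 5 of them held a match. Beside those printed, Tef had an E-box 198 bases before its start and Cry2 an E-box variant 212 bases before its start. Searched on both strands were the E-box CACGTG, found in 6.42% of all 33469 rat windows of this length, and its variant CACGTT, in 4.83%. The other letters were the ROR element cores TAGGTCA (2.63%) and TGGGTCA (4.09%), the D-boxes TTACGTAA (0.12%) and TTATGTAA (0.893%), through which DBP and TEF act, and the full palindromic glucocorticoid response element (0.0149%). No matches overlapped. Neither D-box nor the glucocorticoid element was found in these windows, which says only that these letters are not in these bases.

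Levels per transcript length (FPKM, fragments scaled by transcript length and library size) can be compared between genes. In sham the order was Tef (78.9 FPKM), Cry2 (52.5), Nr1d1 (45.4), Nr1d2 (37.3), Dbp (35.4), Npas2 (20.2), Clock (17.9), Arntl (16.2) and Cry1 (8.09). Only the Nr1d2 and Dbp libraries overlapped as neighbours in that order. Tef, an activator of D-box genes, and Cry2 led in all 6 groups and Cry1 was last in all 6. The middle of the order differed between groups. Nr1d1 stood above Nr1d2 in sham but below it in high Cort (41.1 against 42.4 FPKM) and in ADX (34.7 against 39.7 FPKM), with no overlap of libraries in either. Npas2 was above Clock in sham (18.6 and 21.9 against 17.8 and 18.0 FPKM) and below it in ADX (13.4 and 15.4 against 18.2 and 18.0 FPKM). Of the 2 partners of ARNTL, Npas2 thus carried the difference in order, while Clock kept between 17.5 and 18.7 FPKM in the 6 libraries of that run. The deposited FPKM were made in 2 runs, 1 for sham, high Cort and ADX and 1 for the other groups, so they are compared within a run only.

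**Figure D1:**
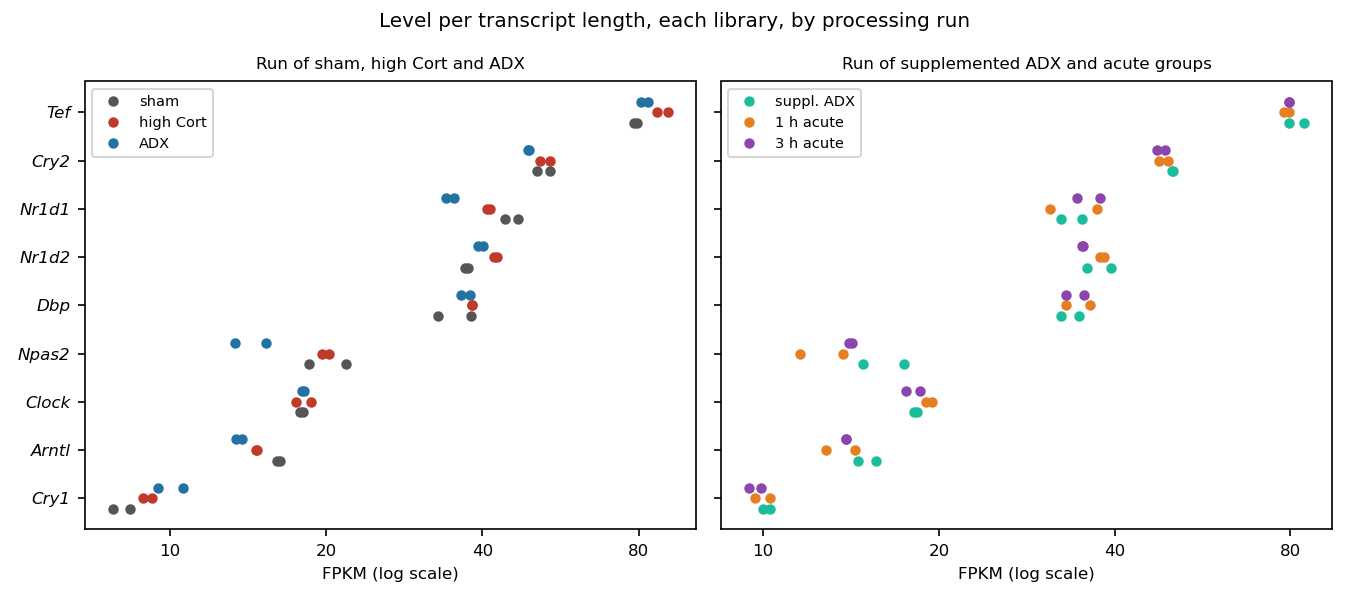
FPKM (log scale) of the 9 genes, 1 point per library, in the run of sham, high Cort and ADX (left) and that of the other groups (right). Tef and Cry2 are the highest and Cry1 the lowest in every group, and Npas2 has libraries spread from 13.4 to 21.9 FPKM on the left.

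Across the 6 groups, changes were small. The widest range of group means was that of Npas2, 0.71 on the log2 scale or 1.64-fold, which was wider than in 91.7% of tested genes. Nr1d1 followed with 0.46 (1.38-fold), then Cry1 and Nr1d2 with 0.31 and 0.30, Arntl with 0.29, Dbp with 0.24, Tef with 0.21, Cry2 with 0.18 and Clock with 0.09. The median over all tested genes was 0.23. For Clock the range was no wider than the gap between the 2 high Cort libraries (0.10), and for Dbp it was close to the gap between the 2 sham libraries (0.23). Clock, which encodes the partner of ARNTL with histone acetyltransferase activity, was among the steadiest genes, with a smaller range in 8.64% of tested genes.

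**Figure D2:**
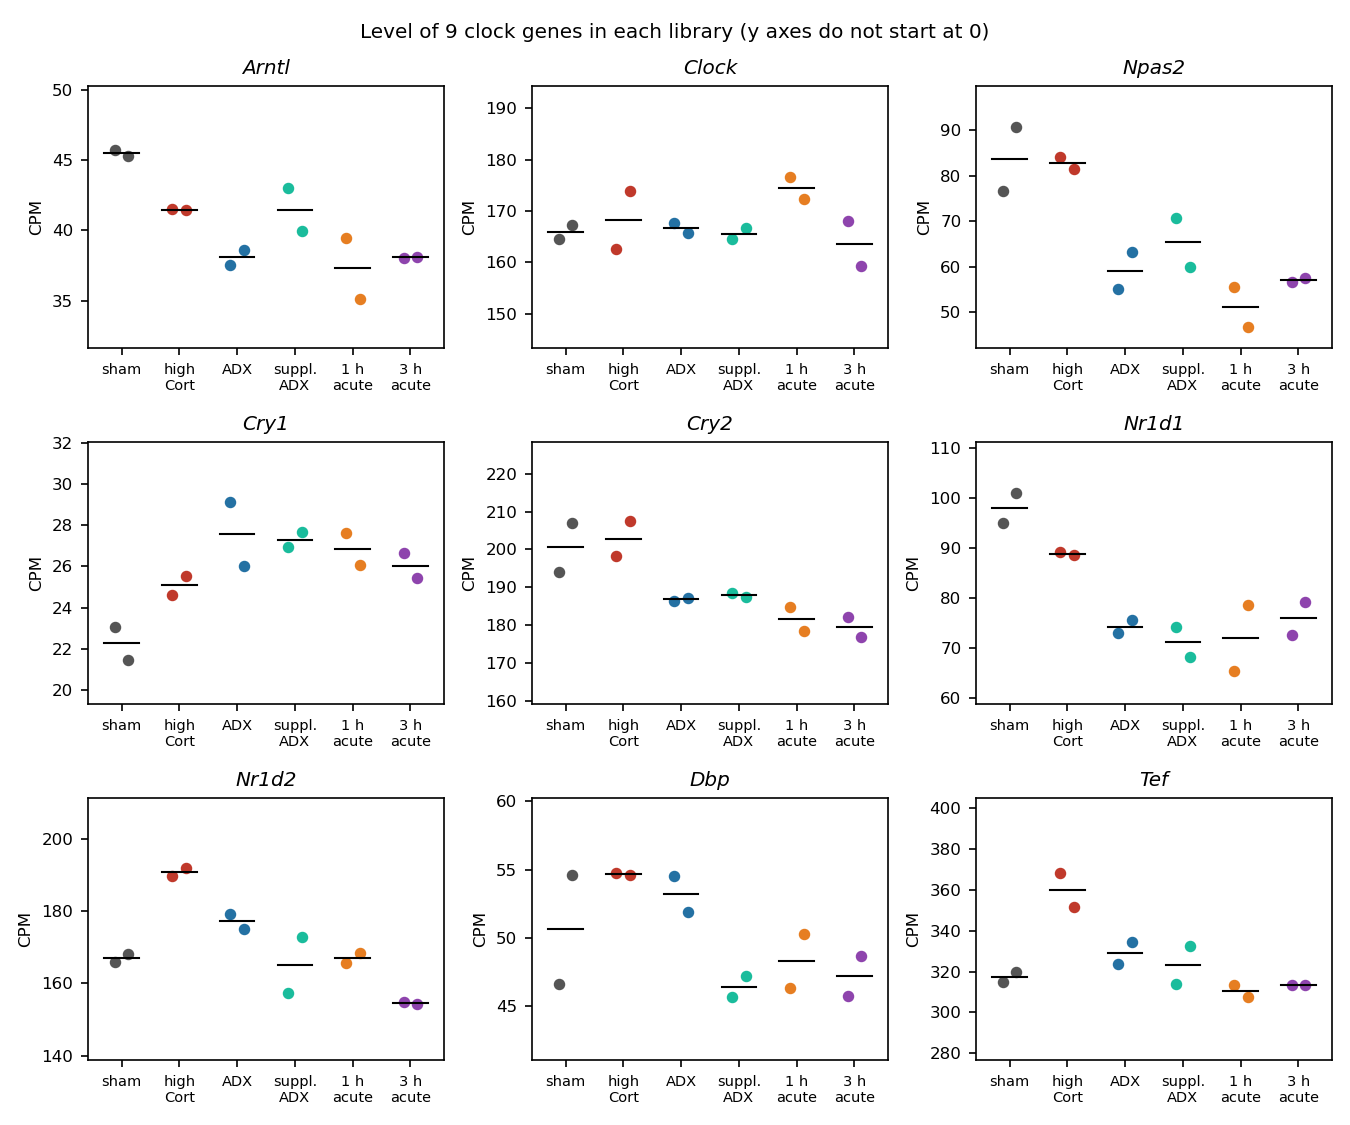
CPM of each gene, 1 panel per gene, with 1 point per library and a bar at the mean of each group. The sham libraries are the 2 highest of 12 for Arntl and Nr1d1 and the 2 lowest for Cry1, while Nr1d2 and Tef are highest in high Cort.

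High Cort against sham addressed the effect of 12 days of excess corticosterone. EdgeR's quasi-likelihood test called none of the 9 genes at an adjusted p under 0.05, against 0.871% of all tested genes, and 4 of the 9 had an unadjusted p under 0.05, against 8.36% of all. DESeq2 and limma on FPKM called none. The 2 nearest to the threshold were higher in high Cort. Tef stood at 314.9 and 320.0 CPM in sham and 368.0 and 351.5 CPM in high Cort (log2 fold change 0.18 ± 0.04 SE, adjusted p = 0.0674). Nr1d2, one of the 2 repressors of Arntl, stood at 165.8 and 168.2 CPM in sham and 189.8 and 192.0 CPM in high Cort (0.19 ± 0.05, adjusted p = 0.0716). For both genes the 2 high Cort libraries were the highest of all 12. With the thalamus score in the edgeR fit both genes passed (0.17 for Tef, 0.20 for Nr1d2, adjusted p of 0.0464 and 0.0447). Each was called in this 1 of 14 alternatives only. Both high Cort scores lay inside the sham range, so the score could move these differences little. The same fit called 159 of all tested genes, against 112 without the score. Nr1d1, the paralog of Nr1d2, lay on the other side of sham, at 89.2 and 88.5 against 94.9 and 101.1 CPM (-0.14 ± 0.08, adjusted p = 0.688). All 6 markers of the paraventricular nucleus were lower in high Cort, with a median log2 fold change of -0.51, and Crh was called. Gfap and Aqp4 of astrocytes and Kdr and Slco1c1 of endothelium were called lower. No thalamus, suprachiasmatic, neuron, oligodendrocyte or microglia marker was called. The part of these markers in the clock gene differences was not tested.

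The other 6 genes gave no call either. Arntl stood at 41.5 and 41.4 CPM against 45.7 and 45.3 in sham (-0.13 ± 0.06, adjusted p = 0.581). Cry1, a repressor of CLOCK and ARNTL, stood at 24.6 and 25.6 CPM against 23.1 and 21.5 (0.17 ± 0.07, adjusted p = 0.528). Dbp, a classic output gene of the clock, had 54.8 and 54.6 CPM against 46.7 and 54.6 in sham. The sham libraries of Dbp spread wider than the groups differed. Intervals at 95% for the log2 fold change ran from -0.07 to 0.12 for Clock, from -0.08 to 0.11 for Cry2 and from -0.04 to 0.26 for Dbp. In the same libraries Per1 rose from 44.4 ± 6.01 to 82.9 ± 2.83 CPM (0.90 ± 0.08, adjusted p = 9.21e-05; SD of 2 libraries), so the Period genes moved and these 9 were not called, a difference between lists that was not tested.

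ADX against sham asked what 7 days without adrenal hormones changed. None of the 9 genes was called, against 0.233% of all tested genes, while 5 of the 9 had an unadjusted p under 0.05, against 12.8% of all. DESeq2 called 2 of them (Npas2 and Nr1d1) and limma on FPKM none. Nr1d1 stood at 73.0 and 75.6 CPM in ADX against 94.9 and 101.1 CPM in sham, with no overlap (-0.40 ± 0.08, 1.32-fold lower, adjusted p = 0.0566). Npas2 stood at 55.0 and 63.2 CPM against 76.6 and 90.7 CPM (-0.50 ± 0.11, adjusted p = 0.134). Both are genes of the activating and repressing arms of the same loop. Arntl had 37.6 and 38.6 against 45.7 and 45.3 CPM (-0.26 ± 0.06, adjusted p = 0.103). Cry1 lay the other way, at 29.1 and 26.0 against 23.1 and 21.5 CPM (0.31 ± 0.07, adjusted p = 0.0944). Without sham replicate 1 the difference was -0.44 for Nr1d1 and -0.61 for Npas2. The sham library then left, replicate 2, was the highest of all 12 for both genes. Over all alternatives the difference ran from -0.45 to -0.35 for Nr1d1 and from -0.61 to -0.32 for Npas2. Of the 14 thalamus markers 10 were lower in ADX without overlap, against 47.2% of all genes without overlap in either direction, their median was -0.45, and none was called. With their score as a covariate Nr1d1 stood at -0.45 and Npas2 at -0.32. Nr1d2, Dbp and Tef were within 0.09 of sham on the log2 scale, with adjusted p from 0.456 to 0.715.

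High Cort against ADX sets the 2 ends of corticosterone exposure side by side. Npas2 rose, from 59.1 ± 5.79 CPM in ADX to 82.8 ± 1.87 CPM in high Cort (0.49 ± 0.11, 1.40-fold, adjusted p = 0.0374), the only call among the 9 genes. Among all genes tested 5.77% were called, 3.5% higher and 2.27% lower. The median log2 fold change of the 9 genes was 0.12 against 0.01 over all tested genes, and 8 of 9 were positive. Nr1d1 (0.26 ± 0.08, adjusted p = 0.0627) and Tef (0.13 ± 0.04, adjusted p = 0.0869) came next, and Cry1 was the negative one (-0.14 ± 0.07, adjusted p = 0.298). The Npas2 call was lost without any 1 of the 4 libraries, with values from 0.38 to 0.57 and adjusted p from 0.072 to 0.24, and in the fit that adds the thalamus score (0.26, adjusted p = 0.185). No thalamus marker was called in this comparison, but 12 of 14 were higher in high Cort without overlap (groups did not overlap for 53.8% of all genes), with a median log2 fold change of 0.54. Of the 6 markers of the paraventricular nucleus 5 fell (Sim1, Otp, Crh, Avp and Trh). Other called markers were Snap25 of neurons, Aldh1l1 and Aldoc of astrocytes and Mobp of oligodendrocytes, all higher, and Gfap and Aqp4 of astrocytes and Cldn5 and Kdr of endothelium, all lower. Beyond the fit with the thalamus score, the part of these markers in the Npas2 difference was not tested. With limma on FPKM, Nr1d1 was called as well.

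Supplemented ADX against ADX asked what corticosterone did in adrenalectomised rats, and the groups come from different processing runs, which cannot be told apart from the treatment. EdgeR called 0.0311% of all genes and none of the 9, where 2 had an unadjusted p under 0.05 against 4.05% of all, and DESeq2 called none. Those 2 were Dbp, at 45.7 and 47.2 against 54.5 and 51.9 CPM in ADX (-0.20 ± 0.07, adjusted p = 1), and Nr1d2 (-0.10 ± 0.05, adjusted p = 1). Of the 4 genes with the largest ADX differences from sham, Npas2, Arntl and Cry1 had group means between ADX and sham. That of Cry1 was close to ADX (27.3 against 27.6 CPM), and that of Nr1d1 did not lie between. None of them passed the test. The same ADX and sham libraries picked these genes and serve as the end points. A place between them is therefore not a test of a return. Npas2 had 70.7 and 60.0 CPM, across the upper end of the ADX range of 55.0 to 63.2 CPM and below both sham libraries (0.15 ± 0.11 against ADX, adjusted p = 1). Arntl had 43.0 and 40.0 CPM, above both ADX libraries (37.6 and 38.6) and below both sham libraries (0.12 ± 0.06, adjusted p = 1). The other 2 genes stayed near the ADX level. Nr1d1 had 74.3 and 68.1 CPM, against 73.0 and 75.6 in ADX and 94.9 and 101.1 in sham. Cry1 had 26.9 and 27.7 CPM, against 29.1 and 26.0 in ADX and 23.1 and 21.5 in sham. Both Cry1 libraries lay inside the ADX range, those of Nr1d1 overlapped it, and all 4 lay outside the sham range. For the return of Nr1d1 the 95% interval of the difference from ADX was -0.22 to 0.10. Against sham itself, supplemented ADX gave no call among the 9 (0.0156% of all genes; 4 of 9 at an unadjusted p under 0.05, against 10% of all), with Nr1d1 nearest (-0.46 ± 0.08, 1.38-fold lower, adjusted p = 0.0802). DESeq2 called Nr1d1 in that comparison. Without sham replicate 1 its difference was -0.50, and over all alternatives it ran from -0.52 to -0.39.

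The acute groups were set against supplemented ADX, the group of the same processing run, and against sham, since the labels named no control for them. Against supplemented ADX none of the 9 genes was called at 1 h (0.0467% of all tested genes were) or at 3 h (0.00778%). At 1 h 2 of the 9 had an unadjusted p under 0.05, against 14.7% of all, and at 3 h none did, against 12.5%. DESeq2 called Npas2 at 1 h and none at 3 h. At 1 h Npas2 stood at 55.5 and 46.7 CPM against 70.7 and 60.0 CPM (-0.34 ± 0.12, adjusted p = 0.243), and Arntl at 39.4 and 35.2 against 43.0 and 40.0 CPM (-0.15 ± 0.06, adjusted p = 0.3). Of the 9 genes 4 were lower without overlap, these 2 included, and 1 was higher without overlap. The share of all genes without overlap is not given for this comparison. In the comparisons where it is given it lay between 47.2% and 56.5%, so these counts are not read as a result. The 14 thalamus markers had a median of -0.54 in this comparison, with none called, and in the fit with their score Npas2 stood at -0.10 and Arntl at -0.07 (adjusted p = 0.986 for both). The Rev-erb and PAR bZIP genes gave 1 h differences between -0.06 (Tef) and 0.05 (Dbp). In the same comparison Per1 rose from 49.6 ± 1.27 to 84.9 ± 3.47 CPM (0.77 ± 0.08, adjusted p = 0.00174).

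Between 1 h and 3 h none of the 9 genes was called either, against 0.0233% of all, and by DESeq2 and limma none. Nr1d2 had the smallest unadjusted p, with 154.9 and 154.2 CPM at 3 h against 165.6 and 168.5 CPM at 1 h (-0.11 ± 0.05, adjusted p = 0.407). It was the only 1 of the 9 under 0.05, against 10.6% of all genes. Clock stood at 168.0 and 159.2 CPM at 3 h against 176.7 and 172.3 CPM at 1 h (-0.09 ± 0.04, adjusted p = 0.477). The 1 h libraries were the highest of their run for Clock.

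Against sham, the acute groups held the most calls. At 1 h 4 of the 9 genes fell and 1 rose, where 12.8% of all tested genes were called, 5.56% higher and 7.2% lower. At 3 h 4 fell and none rose, against 7.98% of all (3.41% higher, 4.57% lower). The genes that fell were Arntl, Npas2, Cry2 and Nr1d1 in both, and both counts use the same sham libraries. Groups did not overlap for 7 of the 9 genes in either comparison, against 56.5% of all genes at 1 h and 53.1% at 3 h. The 9 genes had a median log2 fold change of -0.07 at 1 h and -0.11 at 3 h, against 0.00 over all tested genes in both.

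Among the activators, Npas2 fell from 76.6 and 90.7 CPM in sham to 55.5 and 46.7 CPM at 1 h (-0.70 ± 0.12, 1.62-fold lower, adjusted p = 0.00724) and to 56.7 and 57.5 CPM at 3 h (-0.55 ± 0.12, adjusted p = 0.0249). Every acute library lay below both sham libraries. Arntl fell from 45.7 and 45.3 to 39.4 and 35.2 CPM at 1 h (-0.28 ± 0.06, adjusted p = 0.0127) and to 38.1 and 38.1 CPM at 3 h (-0.26 ± 0.06, adjusted p = 0.0263). Arntl RNA was thus 1.21-fold lower at 1 h and 1.19-fold lower at 3 h. Clock did not pass, with 0.07 ± 0.04 at 1 h (adjusted p = 0.315) and -0.02 ± 0.04 at 3 h (adjusted p = 0.833).

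Among the repressors, Nr1d1 fell from 94.9 and 101.1 to 65.3 and 78.6 CPM at 1 h (-0.46 ± 0.08, 1.37-fold lower, adjusted p = 0.00464) and to 72.5 and 79.2 CPM at 3 h (-0.37 ± 0.08, adjusted p = 0.0162). Its paralog Nr1d2 stood at 165.6 and 168.5 CPM at 1 h against 165.8 and 168.2 CPM in sham (0.00 ± 0.05, adjusted p = 1), and at 154.9 and 154.2 CPM at 3 h (-0.11 ± 0.05, adjusted p = 0.145). The cryptochromes went in opposite directions at 1 h. Cry1 rose from 23.1 and 21.5 to 27.6 and 26.1 CPM (0.27 ± 0.07, adjusted p = 0.0274), and had 26.7 and 25.4 CPM at 3 h (0.23 ± 0.08, adjusted p = 0.0797). Cry2 fell from 194.0 and 207.1 to 184.7 and 178.4 CPM at 1 h (-0.14 ± 0.04, adjusted p = 0.0468) and to 182.1 and 176.9 CPM at 3 h (-0.16 ± 0.04, adjusted p = 0.0397). The Cry1 call at 1 h was lost in 6 of 11 alternatives, DESeq2 and the fit of the 4 libraries compared among them. The Cry2 call was lost in 10 of 11 alternatives at 1 h and in 9 of 11 at 3 h, other scaling (RLE) and DESeq2 among them. Of the output genes, neither Dbp (-0.07 ± 0.07 and -0.10 ± 0.07) nor Tef (-0.03 ± 0.04 and -0.02 ± 0.04) passed at 1 h or 3 h.

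**Figure D3:**
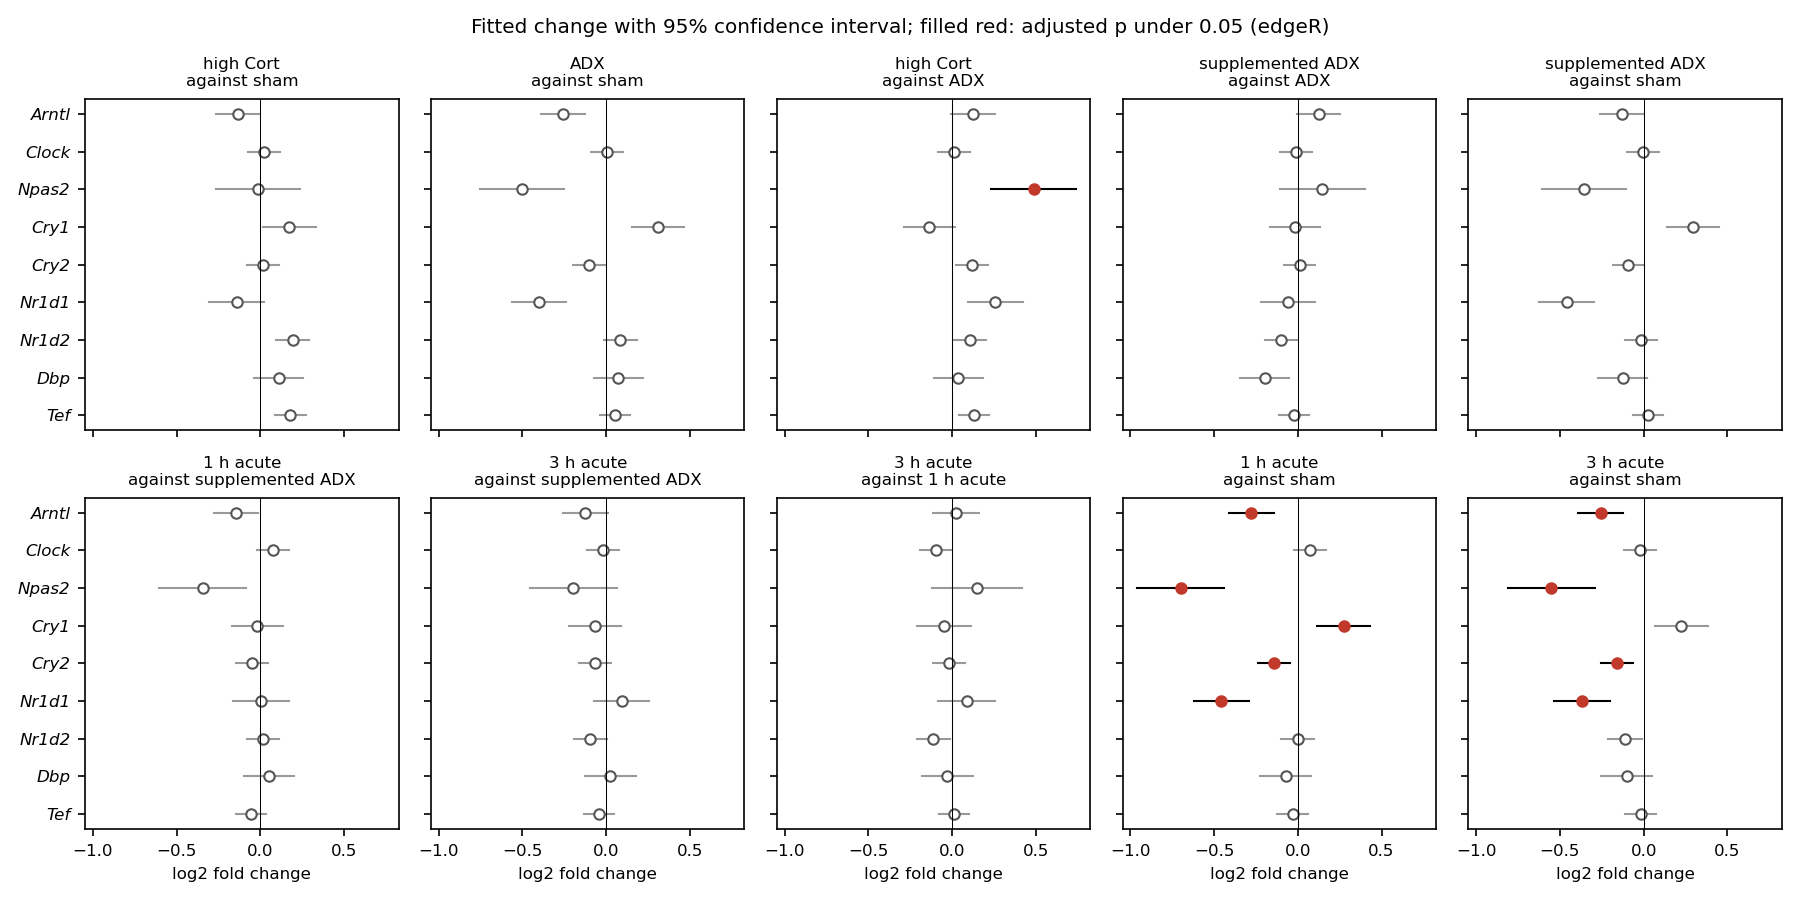
Log2 fold change (x axis) of each gene in 10 comparisons, 1 panel each, with 95% confidence intervals; filled points passed an adjusted p under 0.05. Calls gather in the panels of the acute groups against sham, beside 1 for Npas2 in high Cort against ADX.

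These calls depended on single libraries, and so did the calls over all genes. Without sham replicate 2, 1 h acute replicate 2 or either 3 h acute library, fewer of all tested genes were called as well. Those drops are therefore not particular to the 9 genes. Without 1 h acute replicate 1 more of all tested genes were called at 1 h. Without sham replicate 2 the number called fell from 5 to 0 at 1 h and from 4 to 0 at 3 h, and without sham replicate 1 it was 5 and 3. Without 1 h acute replicate 1 or replicate 2 it was 3 or 2, and without either 3 h acute library 0. A fit of only the 4 libraries compared called none at 1 h and 3 at 3 h (Arntl, Npas2 and Nr1d1). Sham and the acute groups also come from different processing runs, which cannot be told apart from the groups. Nr1d1 overlaps the thyroid hormone receptor gene Thra on the opposite strand, and fragments of the overlap may count for either gene, since the strand setting of the counting is not stated. Thra, looked up after these values were seen, stood at 316.1 ± 8.86 CPM in sham, 326.7 ± 12.5 at 1 h and 353.2 ± 4.53 at 3 h. Against sham Thra was not called at 1 h, with libraries overlapping (0.05 ± 0.04, adjusted p = 0.52). It was called at 3 h (0.16 ± 0.04, adjusted p = 0.0343), in the other direction from Nr1d1. The part of shared fragments in these values was not tested.

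Thalamus marker levels differed between the same groups. Of the 14 thalamus markers, 9 fell at 1 h and 3 at 3 h against sham, none rose, and their median log2 fold changes were -0.94 and -0.77. In the fit with the thalamus score none of the 9 clock genes was called in either comparison, and 3 of all genes were called at 1 h and 4 at 3 h, so this fit left few calls for any gene. The values moved unequally. Npas2 went from -0.70 to -0.28 at 1 h and from -0.55 to -0.20 at 3 h, Cry2 from -0.14 to -0.04 and from -0.16 to -0.08, and Arntl from -0.28 to -0.14 and from -0.26 to -0.15. Nr1d1 went from -0.46 to -0.58 and from -0.37 to -0.47, and Cry1 from 0.27 to 0.23 and from 0.23 to 0.19. The fitted differences of Npas2, Cry2 and Arntl were thus smaller in this fit, that of Nr1d1 larger and that of Cry1 slightly smaller. The sham scores (6.71 and 7.23) lay above all acute scores (5.68 to 6.33), so no sham and acute libraries had an equal score.

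Other markers moved as well. Of 8 markers of the suprachiasmatic nucleus Vip and Rgs16 fell and Syt10 rose at 1 h, and Vip fell at 3 h, while their summed level was 88.8 to 102 CPM in sham, 85.1 to 88.8 at 1 h and 80.0 to 85.2 at 3 h. Of 6 markers of the paraventricular nucleus 1 rose at 1 h (Otp) and 4 at 3 h (Otp, Crh, Avp and Trh). Of 6 neuron markers Snap25 and Stmn2 fell at 1 h and Snap25 at 3 h. The endothelial markers Flt1 and Kdr and the microglial marker Cx3cr1 fell at 1 h, and the endothelial marker Slco1c1 fell at 3 h. No astrocyte or oligodendrocyte marker was called. The part of these markers in the clock gene differences was not tested.

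Within groups the same order showed for Npas2. In 6 of 6 groups the library with the higher thalamus score had the higher Npas2 level, as in sham (6.71 and 7.23 against 76.6 and 90.7 CPM) and 1 h acute (6.33 and 5.68 against 55.5 and 46.7 CPM). This held in 5 groups for Arntl and Nr1d1, 4 for Cry2 and Tef, 3 for Dbp, 2 for Clock, and 1 for Cry1 and Nr1d2. The share of all tested genes with such an order was not counted, so these counts are not read as a trait of Npas2 or another gene. The scores themselves were close in supplemented ADX (6.60 and 6.57). Some pairs were nearly equal, as Arntl in high Cort (41.52 and 41.43 CPM, at scores of 7.10 and 7.07). In bulk tissue fewer cells of a type and less RNA per cell cannot be told apart.

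**Figure D4:**
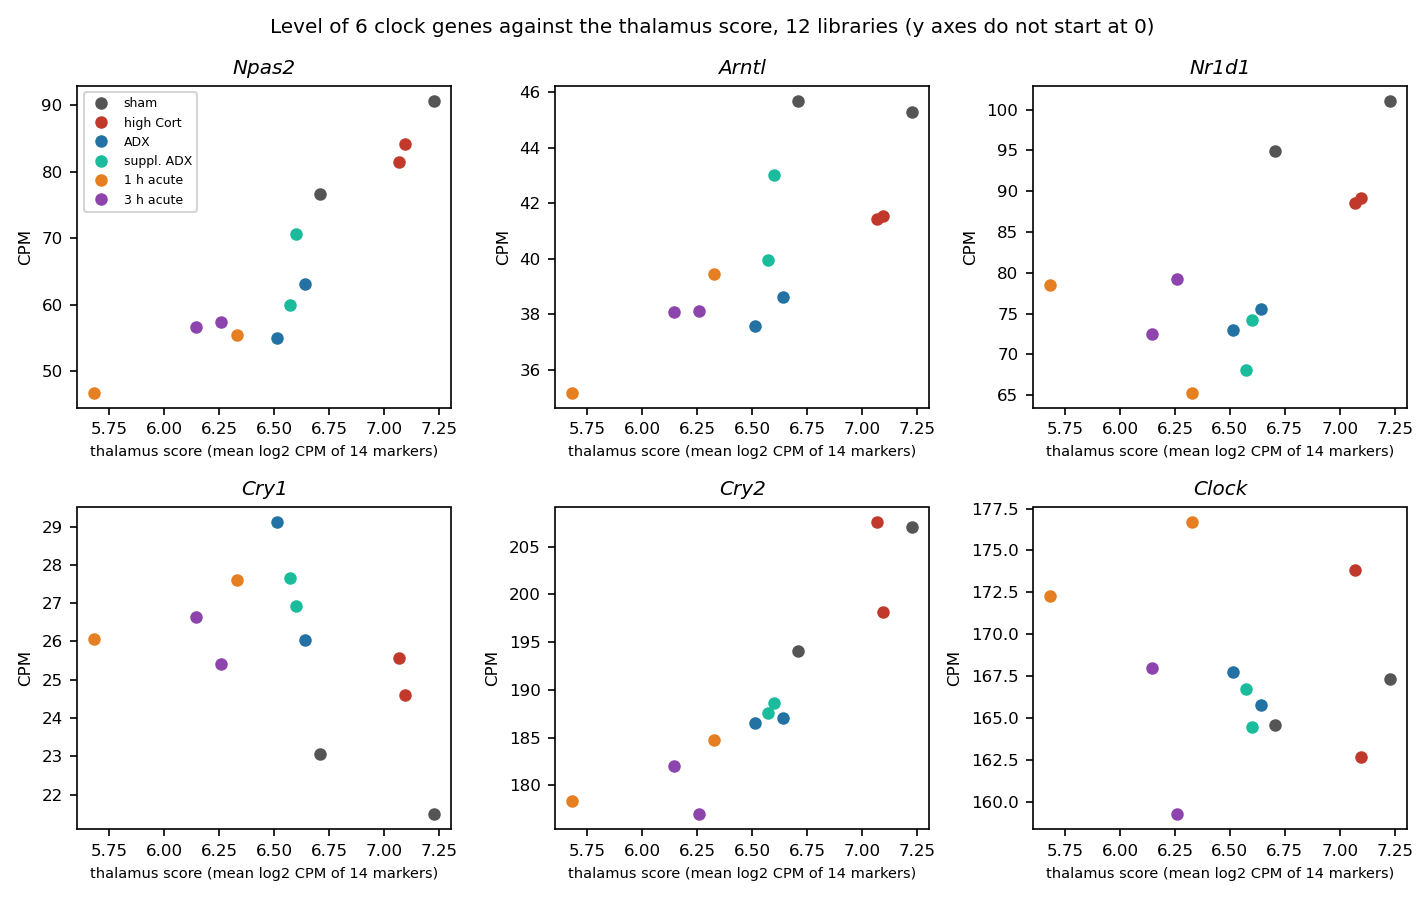
CPM of 6 clock genes (y axes) against the thalamus score (x axis, mean log2 CPM of 14 markers), 1 point per library in the colour of its group. Npas2 and Cry2 are lowest or near lowest at a score of 5.68 and highest above 7, Nr1d1 is set apart mainly in sham and high Cort, and Clock shows no such order.

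The genes whose profile over the 12 libraries was nearest to a clock gene were sought for Npas2, Nr1d1 and Cry1, the 3 with the widest range, by the root mean square difference of log2 CPM after centring, among 11250 genes. For Npas2 they were Cyp46a1 (0.084), which encodes the cholesterol 24-hydroxylase of neurons, Nsmf (0.087) and Cttnbp2 (0.087), where the median gene lay at 0.30. Cyp46a1 stood at 170.1 and 209.6 CPM in sham and at 135.8 and 104.9 CPM in 1 h acute, the order seen in Npas2. For Nr1d1 they were Sync (0.093), Apip (0.094) and Nuak2 (0.097), against a median of 0.20. For Cry1 they were Adcyap1 (0.055), which encodes the neuropeptide PACAP, Dlg2 (0.059) and Kdm5a (0.062), against a median of 0.15.

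Other genes of the clock were listed by role, and 16 of them were tested. Most of the calls among them were Period genes. Against sham, 4 of 16 rose in high Cort (Per1, Per2, Per3 and Usp2), 2 rose in ADX (Per2 and Per3), and 1 rose in supplemented ADX (Per2), with none lower. At 1 h acute 3 rose (Per1, Per2 and Per3) and 1 fell (Bhlhe40), and at 3 h acute 2 rose (Per2 and Per3) and 3 fell (Rorb, Bhlhe40 and Ciart). Per2, a partner of the cryptochromes, was 54.6 ± 0.271 CPM in sham and between 70.1 ± 1.83 and 93.3 ± 3.23 CPM in the other groups. Usp2, which encodes a deubiquitinase of clock proteins, rose from 23.7 ± 1.41 to 31.8 ± 0.92 CPM in high Cort (0.42 ± 0.07, adjusted p = 0.0073). It stood at 22.9 ± 0.169 CPM in ADX.

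High Cort against ADX called 3 of the 16, all higher: Per1, Usp2 (0.47 ± 0.07, adjusted p = 0.000973) and Bhlhe40 (0.33 ± 0.08, adjusted p = 0.0415). Against sham, the acute groups gave decreases outside the Period genes. In these comparisons, which cross the processing runs, 7.2% of all tested genes were called lower at 1 h and 4.57% at 3 h. With the thalamus score 3 of all genes were called at 1 h and 4 at 3 h. Bhlhe40, a repressor that binds E-boxes, fell from 95.6 ± 5.13 in sham to 67.6 ± 5.61 CPM at 1 h (-0.49 ± 0.09, adjusted p = 0.00579) and 72.3 ± 0.0658 CPM at 3 h (-0.40 ± 0.09, adjusted p = 0.0201). Ciart, which encodes a repressor of CLOCK and ARNTL, fell from 6.62 ± 0.987 to 4.13 ± 0.559 CPM at 3 h (-0.69 ± 0.16, adjusted p = 0.0211). Rorb, an activator at ROR elements, fell from 41.5 ± 2.03 to 33.2 ± 3.76 CPM at 3 h (-0.32 ± 0.08, adjusted p = 0.0290). The 3 h level of Ciart rested on 94 and 84 fragments. Against supplemented ADX, in the same run, Bhlhe40, Ciart and Rorb were not called at 1 h or 3 h (edgeR adjusted p from 0.278 to 0.974). Nfil3, which represses at D-boxes, stood at 10.2 CPM at 1 h against 8.16 CPM in sham (0.32 ± 0.11, adjusted p = 0.0636). Between 1 h and 3 h Per1 fell from 84.9 ± 3.47 to 50.8 ± 1.43 CPM (-0.74 ± 0.08, adjusted p = 0.00309), the only call among the 16. Classic glucocorticoid-induced genes rose in high Cort, 9 of 12 tested against sham, Per1 among them. At 1 h acute against supplemented ADX 1 of 12 did, and it was again Per1, which is in both lists. In ADX against sham none of the 12 was called.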

How the data were processed

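RNA was sequenced from 12 libraries, 2 in each of 6 groups. Per the labels, RNA was extracted with Trizol and columns and sequenced as TruSeq libraries. Named in the submitters' processing notes are the build rn6, Cufflinks 2.2.1, TopHat2 2.1.1 and CASAVA 1.8.2, without their roles; annotation and strand setting are not stated there. The authors deposited raw fragments per gene, which are estimated counts (expected counts) that were not scaled; 0.751% of values were not whole and were rounded. The deposited FPKM were scaled by the authors within each of 2 runs, per the file headers. The deposited scaled fragments, a signal scaled to library size by the authors, were not used.

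Counts were analysed with edgeR 4.0.16 in R 4.3.3: filterByExpr (minimum count 10, total 15), TMM scaling, and 1 robust quasi-likelihood model of all 12 libraries with a coefficient per group (6 residual degrees of freedom), because 2 libraries leave little information on the spread. Each of 10 comparisons was tested 2-sided with Benjamini-Hochberg adjustment over 12856 genes, and a gene was called under 0.05. SE is the log2 fold change divided by the square root of its F statistic. A permutation of 2 against 2 libraries cannot go below p = 0.333. The function was tested on simulated data.

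The members and lists were chosen with earlier results of these data known. All members were named, with called genes of the other clock list and, for the 3 members of widest range, the 3 nearest profiles; Thra was added. An item of the other clock list is not reported here. Alternatives were RLE scaling, no filter, a stricter filter (4 libraries at 1 CPM or more), DESeq2 1.42.0, limma 3.58.1 on log2(FPKM + 1) or log2(FPKM + 0.1), a fit of the 4 libraries compared, a replicate block, the thalamus score, and leaving out each library. A fit of the 6 libraries of a run was added after the data were seen.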

Additional observations from a re-analysis of the deposited data

How the results depend on the processing

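The number of the 9 clock genes called was counted again under each alternative. For 1 h acute against sham (5) it was 3 by DESeq2, 0 in the fit of 4 libraries, 0 with the thalamus score, 4 with RLE scaling, without a filter or with the stricter filter, and 0 to 5 without 1 library. For 3 h acute against sham (4) it was 0 with the thalamus score, 3 by DESeq2, with RLE scaling, without a filter or in the fit of 4 libraries, 4 with the stricter filter, and 0 to 3 without 1 library. For high Cort against ADX (1) it was 0 without a filter, 0 with the replicate block, 0 with the thalamus score, 0 without each library, 2 by limma on FPKM with either pseudocount, 3 in the fit of 4 libraries and 2 in the fit of the run. For ADX against sham (0) it was 2 by DESeq2, 1 in the fit of 4 libraries, 1 in the fit of the run, 1 without a filter and 0 to 2 without 1 library. For supplemented ADX against sham (0) it was 1 by DESeq2, 1 in the fit of 4 libraries, 1 without a filter and 0 to 1 without 1 library. It was 1 by DESeq2 for 1 h acute against supplemented ADX (0), and 2 with the thalamus score for high Cort against sham (0). Calls over all tested genes moved as well. For high Cort against ADX they were 742 in the main edgeR fit, 1653 in the fit of 4 libraries and 246 with the thalamus score. Limma on FPKM called 542 and 536 there, fewer than the main fit. For 1 h acute against sham they were 1641, 23 and 3 in the main fit, the fit of 4 libraries and the fit with the score. For ADX against sham they were 30 in the main fit and 123 by DESeq2. The causes of the moves in the counts of the 9 genes were not tested. The counts for supplemented ADX against ADX, 3 h acute against supplemented ADX and 3 h against 1 h were 0 under every alternative run. No called gene changed sign under the alternatives run. Where a library was left out, the lone library of its group was assumed to vary like the other groups.

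Replicate numbers did not pair the libraries: deviations of same-numbered libraries correlated between -0.32 and 0.09 over 15 pairs of groups. None exceeded 0.1, and 4 lay under -0.1. With the replicate block 4 genes were called at 1 h acute against sham, 3 at 3 h acute against sham and 0 in each of the other comparisons.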
